A study of Zea mays with 2 samples.

Results

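Isolated loops are the chromatin loops that share neither of their anchors with any other loop of the same Hi-C library. They were found in the loop list of replicate 2 on chromosomes 1 to 10 and were selected on the measured anchor coordinates. A loop was kept when neither of its 10-kb anchors had the same coordinates as an anchor of another loop. The rule left 2800 of 25628 loops, or 10.9% (95% Wilson interval 10.5 to 11.3). The remaining 22828 loops shared an anchor, 8383 of them at 1 anchor and 14445 at both. Hi-C was performed on whole leaves of the maize inbred line B73, grown in a greenhouse to stage v04, with the leaves of 4 plants pooled in each of replicates 1 and 2. No treatment, second genotype or other tissue was compared, so the replicates served to ask which loops were found again. Tissue was ground and frozen before it was fixed with formaldehyde, and a pooled whole leaf mixes the contacts of all its cell types.

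Hi-C joins DNA fragments that lie close to each other in the nucleus and reads both ends of the joined piece. A loop is called where a pair of loci, its anchors, is in contact more often than the sequence around them. Neighboring loci also form domains within which contacts are frequent, and in maize such TAD-like domains are nested inside each other. Many anchors in maize take part in several loops and form small networks, from which an isolated loop stands apart as a single link between 2 places.

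The replicates were not called in the same way. All anchors of replicate 2 were 10 kb wide, whereas those of replicate 1 were 5, 10 or 25 kb wide, and loops were called with different versions of the same program. In replicate 1, anchors of unlike size never have the same coordinates, so there a loop was called isolated when no anchor of another loop overlapped its anchors. This gave 3507 of 16863 loops, or 20.8% (20.2 to 21.4). The larger share cannot be told apart from the change of rule and caller. By exact coordinates, 55.5% of the replicate 1 loops would have counted as isolated. Loop calls rest on the contacts at 1 position of the map, with a median of 32 in replicate 2 and 21 in replicate 1 over all loops. The intervals cover counting error alone and take each loop as an independent call.

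Isolated loops occurred on every chromosome at a similar density. They made up from 8.99% of the loops on chromosome 1 to 13.0% on chromosome 4. Their density ranged from 1.21 per Mb on chromosome 1 to 1.46 per Mb on chromosome 10, against 9.36 to 12.3 loops per Mb that shared an anchor. Chromosome 1 had both the highest density of sharing loops and the lowest density of isolated ones, whereas chromosome 4 had the lowest density of sharing loops.

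Many isolated loops were only just isolated. For 1567 of them (55.96%) another loop had an anchor in the adjoining 10-kb bin of at least 1 anchor, and for 387 this held for both anchors. The nearer anchor lay a median of 10 kb from the anchor of another loop and the farther one 50 kb, and in 12 loops both lay more than 500 kb away. The loops just outside the rule, 3644 with 1 anchor shared with 1 other loop, had a median length of 90 kb and a median ratio of observed to expected contacts of 3.995. Isolated loops with a neighbor in the adjoining bin had medians of 70 kb and 3.87, and the 1233 without one 50 kb and 3.52. These distances belong to the rule and describe the members alone.

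Isolated loops were short. The distance between anchor starts had a median of 60 kb (quartiles 40 and 120), against 130 kb (70 and 220) for loops that shared an anchor. It was 100 kb for loops that shared 1 anchor and 140 kb for those that shared both. The median was lower for isolated loops on 10 of 10 chromosomes, and also in replicate 1, where it was 80 kb (50 and 140) against 130 kb (80 and 230). In replicate 2, 878 isolated loops (31.4%) had the shortest length called, 40 kb, against 11.1% of the sharing loops. At the other end the order turned. Loops over 500 kb made up 2.50% of isolated and 3.70% of sharing loops, but loops over 1 Mb made up 1.46% of isolated loops (41 loops, 1.08 to 1.98) and 0.482% of the others (0.400 to 0.580). In replicate 1 these shares over 1 Mb were 1.25% (0.936 to 1.68) and 0.734% (0.603 to 0.893).

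**Figure D1:**
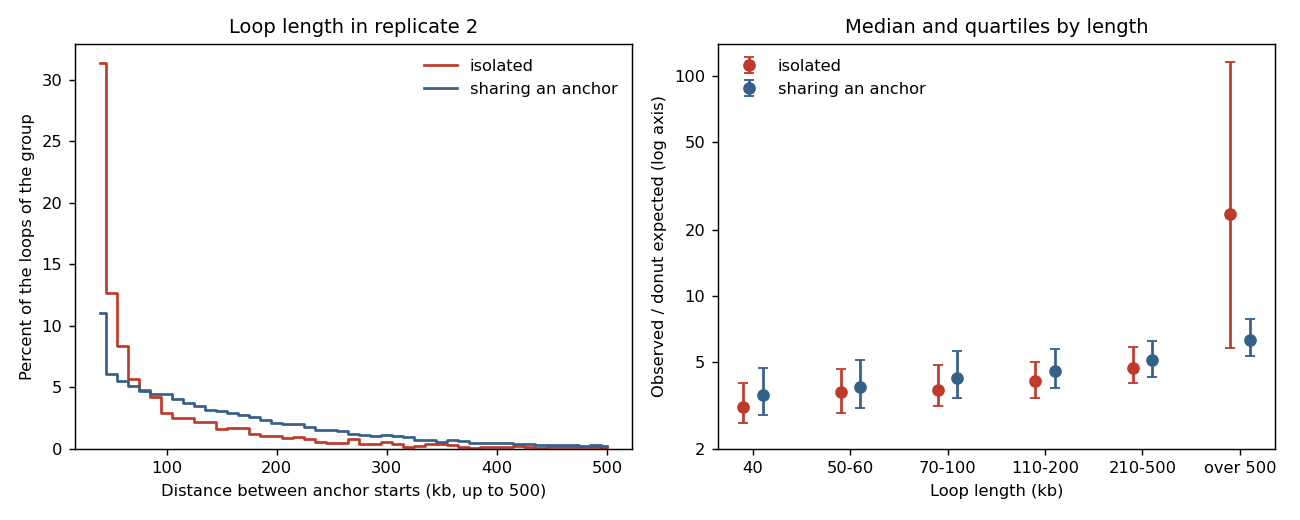
Left, the percent of isolated loops and of loops sharing an anchor in replicate 2 at each length in steps of 10 kb, drawn up to 500 kb. Right, the median ratio of observed to donut-expected contacts with its quartiles (bars) in 6 length bins on a log axis, which is lower for isolated loops in each bin up to 500 kb and reaches 23.6 above it.

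In replicate 2, isolated loops up to 500 kb rose less above their surroundings than sharing loops of the same length. The list gives for each loop the contacts observed and those expected from a donut-shaped area around it. Observed contacts had the same median of 32 in both groups (quartiles 23 and 45 for isolated loops, 22 and 49 for the others). Expected contacts were a median of 8.68 for isolated and 7.47 for sharing loops. The ratio of both was 3.72 for isolated loops (quartiles 2.99 and 4.86) and 4.52 for sharing loops (3.61 and 5.82), with 4.11 for those that shared 1 anchor and 4.79 for both. Against the lower-left background, another local area of the list, the medians were closer, at 4.05 and 4.34. The donut ratio was lower for isolated loops on 10 of 10 chromosomes, where their medians ran from 3.53 to 3.92 and those of sharing loops from 4.40 to 4.64. It was also lower in all 5 length bins up to 500 kb, at 3.11 against 3.51 for 40-kb loops and 4.66 against 5.09 for loops of 210 to 500 kb. Over 500 kb the order turned, with 23.6 against 6.30. A ratio under 3 was found in 25.5% of isolated and 10.2% of sharing loops, although the largest ratios were also more frequent among isolated loops, with 1.93% (54 loops) above 20 against 0.184%.

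At matched length, short isolated loops of replicate 2 also had fewer contacts. The median was 34 contacts for 40-kb isolated loops and 50 for 40-kb sharing loops, and 38 against 49 at 50 to 60 kb. From 110 to 200 kb it was 27 against 30, and over 500 kb the order turned, with 16 against 15. In replicate 1 the medians were close to each other at short lengths, with 16 against 17 in the shortest length bin, 20 against 22 in the next and 20 against 21 in that from 110 kb. The equal medians of 32 over all lengths in replicate 2 thus combined shorter lengths with fewer contacts at each short length. A call made of 1 pixel of the contact map, with no neighboring pixel enriched, was found for 47.9% of isolated loops (46.0 to 49.7) and 39.0% of sharing loops (38.4 to 39.6). At the lengths of the isolated loops, the share among sharing loops was 41.6%.

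In replicate 1 the order of the ratios depended on the anchor size and on the length. Over all sizes, the median ratio was 5.03 for isolated and 4.90 for sharing loops, higher for isolated loops on 7 of 10 chromosomes and so opposite to replicate 2. By length, it was lower for isolated loops in each bin up to 200 kb. It was higher for them at 210 to 500 kb (4.74 against 4.26) and over 500 kb (6.82 against 4.33). Within each size, isolated loops had the lower median. It was 7.11 against 7.71 for 5-kb anchors, 4.35 against 4.84 for 10-kb anchors and 2.86 against 3.16 for 25-kb anchors. Isolated loops made up 26.6% of the 5-kb loops, which had the highest ratios, and 14.5% of the 25-kb loops. The share of 1-pixel calls in replicate 1 was 40.8% for isolated and 44.9% for sharing loops, an order opposite to that of replicate 2.

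Isolated loops were found again less often. A loop recurred when 1 loop of replicate 1 overlapped both of its anchors, which was so for 30.3% of all replicate 2 loops tested. Of the isolated loops 629 recurred, or 22.5% (21.0 to 24.0), against 31.3% of the sharing loops (30.7 to 31.9). The difference was -8.85 percentage points (95% Newcombe interval -10.5 to -7.16). The share was lower for isolated loops on 10 of 10 chromosomes, with 19.8 to 25.7% against 29.6 to 33.4%. Identical anchors in both replicates, found for 12.3% of all loops, were found for 228 isolated loops (8.14%) and for 12.8% of the sharing loops. Looked up in the other direction, 36.4% of the isolated loops of replicate 1 recurred in replicate 2 (34.8 to 38.0), against 48.7% of its sharing loops (47.8 to 49.5).

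Much of the difference in replicate 2 went with the combination of length and contacts. Recurrence rose with contacts in both groups, from 11.2% under 20 contacts to 47.7% at 50 or more for isolated loops, and from 9.57 to 56.8% for sharing loops. When the sharing loops were weighted to the lengths of the isolated loops alone, the difference was -8.10 points (-9.77 to -6.43), and -8.35 (-9.93 to -6.77) when weighted to their contacts alone. Weighted to both, 23.7% of the sharing loops recurred beside 22.4% of the isolated loops, a difference of -1.27 points (-2.78 to 0.23). Against loops that shared both anchors it was -3.07 points (-4.85 to -1.29), and against those that shared 1 anchor 0.28 (-1.33 to 1.88). In replicate 1 the same weighting left -14.2 points (-16.1 to -12.4), and -12.7 (-14.5 to -10.9) when anchor size was weighted too. Weighted to length and the ratio of observed to expected contacts instead, the difference in replicate 2 was -5.03 points (-6.63 to -3.43). In replicate 1 it was -14.0 points (-15.8 to -12.1). The replicates thus gave different answers once length and contacts were matched, but the same sign once length and the ratio were.

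**Figure D2:**
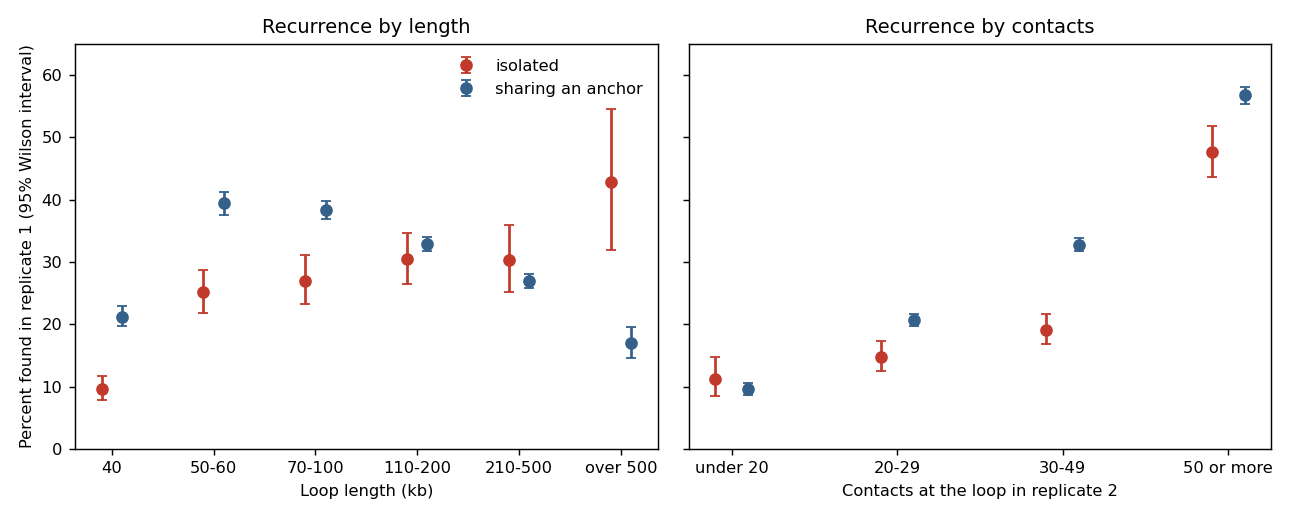
Percent of replicate 2 loops found in replicate 1, with 95% Wilson intervals (bars), by loop length (left) and by contacts at the loop (right). Isolated loops lie below sharing loops at 40 to 100 kb and above them over 500 kb, at 42.9% against 16.9%.

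The order by length crossed over. Of the 40-kb loops, 9.57% of isolated (7.79 to 11.7) and 21.2% of sharing loops (19.7 to 22.9) recurred. At 110 to 200 kb the shares were 30.4% and 32.9%, with overlapping intervals. Over 500 kb, 30 of 70 isolated loops recurred (42.9%, 31.9 to 54.5), against 16.9% of sharing loops (14.6 to 19.6). In replicate 1 the shares over 500 kb were 29.5% (21.0 to 39.8) and 24.6% (21.3 to 28.3), whose intervals overlapped. The shape of the call went with recurrence as well. Isolated loops of 1 pixel recurred in 12.4% of cases (10.7 to 14.2) and those of 2 or more pixels in 31.7% (29.4 to 34.2).

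What was absent in replicate 1 was often any loop at either anchor. Neither anchor lay on a replicate 1 anchor for 1057 isolated loops, or 37.8% (35.97 to 39.6), against 6.81% of sharing loops (6.49 to 7.14). In 879 (31.4%) 1 anchor was found, and in 235 (8.39%) both were found but in different loops, against 30.3% and 31.6% of sharing loops. Shared anchors could be found again through any of their loops, so these shares are tied to the rule. They were not matched for length or contacts. The 1057 had a median length of 50 kb and a median ratio of 3.30, and 67.3% were 1-pixel calls. The 629 that recurred had medians of 90 kb and 4.63, with 26.4% of 1 pixel.

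When an isolated loop recurred, its partner was often isolated too. Of the 629 partners, 320 (50.9%, 47.0 to 54.8) were isolated in replicate 1 by the overlap rule, against 13.4% (12.6 to 14.2) of the partners of sharing loops. The partner was the only replicate 1 loop on either anchor for 334 isolated loops (11.9% of all 2800), against 3.85% of sharing loops. Partners had a median of 22 contacts in replicate 1, where the isolated loops themselves had 43 in replicate 2. For recurring sharing loops these medians were 21 and 45. Of the 629 partners, 284 had 5-kb and 117 had 25-kb anchors, so the contacts were counted over areas of different size. In the 228 isolated loops with identical anchors, the median ratio was 4.74 in replicate 1 and 4.42 in replicate 2. It was higher in replicate 1 for 137 of them (60.1%). For the 2933 sharing loops with identical anchors, the medians were 4.93 and 4.85, and the ratio was higher in replicate 1 for 1505 (51.3%).

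The anchors of isolated loops were themselves found again less often than others. Replicate 2 had 27344 distinct anchors, of which 5600 belonged to isolated loops. Of these, 46.6% (45.2 to 47.9) overlapped an anchor of replicate 1. The unshared anchors of loops that shared their other anchor came next, at 53.2% (52.1 to 54.2), followed by anchors of 2 loops at 73.2%, of 3 loops at 86.6% and of 4 or more loops at 92.2% (91.1 to 93.1). The same order held for domain boundaries. Anchors of isolated loops lay within 2 kb of a boundary of replicate 2 in 24.2% of cases (23.1 to 25.4), unshared anchors of other loops in 28.95%, and anchors of 4 or more loops in 52.9% (51.0 to 54.7). With the boundaries of replicate 1 these shares were 22.7%, 26.8% and 50.4%. The anchors were grouped by their number of loops in replicate 2, on which the rule rests. An anchor of several loops could be found again through any of them. The shares of anchors were not matched for length or contacts.

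**Figure D3:**
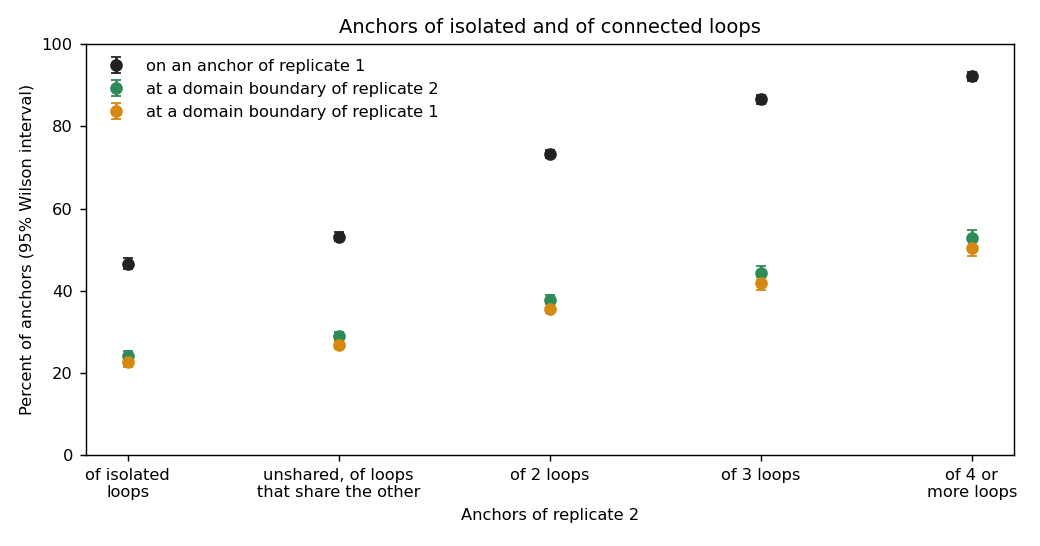
Percent of replicate 2 anchors that overlap an anchor of replicate 1 or lie within 2 kb of a domain boundary of either replicate, with 95% Wilson intervals (bars), by the number of loops that use the anchor. All 3 shares are lowest for the 5600 anchors of isolated loops and rise to 92.2%, 52.9% and 50.4% for anchors of 4 or more loops.

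Isolated loops lay mostly inside domains and away from their boundaries. Each loop was placed in the smallest domain that held it, and an anchor within 2 kb of a boundary counted as at the boundary. In replicate 2, 1483 isolated loops (53.0%, 51.1 to 54.8) were embedded with neither anchor at a boundary, against 27.5% of sharing loops (26.9 to 28.1). The difference was 25.4 points (23.5 to 27.4) and had the same sign on 10 of 10 chromosomes. One anchor was at a boundary in 32.2% of isolated and 36.9% of sharing loops. Both were at the boundaries of 1 domain in 5.79% (162 loops) and 11.9%, and no single domain held 9.04% (253 loops) and 23.7%. With the domains of replicate 1, 54.2% of isolated and 29.4% of sharing loops were embedded. Replicate 1 loops in replicate 1 domains gave 53.5% (51.9 to 55.2) and 33.7% (32.9 to 34.5).

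Part of this difference went with length. At the lengths of the isolated loops, 34.1% of sharing loops were embedded, which left 18.9 points (16.96 to 20.8). For loops held by no single domain, the difference shrank from -14.7 to -4.62 points (-5.57 to -3.66). The same weighting left 12.02 points (10.2 to 13.9) for embedded loops in replicate 1. Among 40-kb loops, 73.6% of isolated and 45.8% of sharing loops were embedded, and among longer loops 43.5% and 25.2%.

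**Figure D4:**
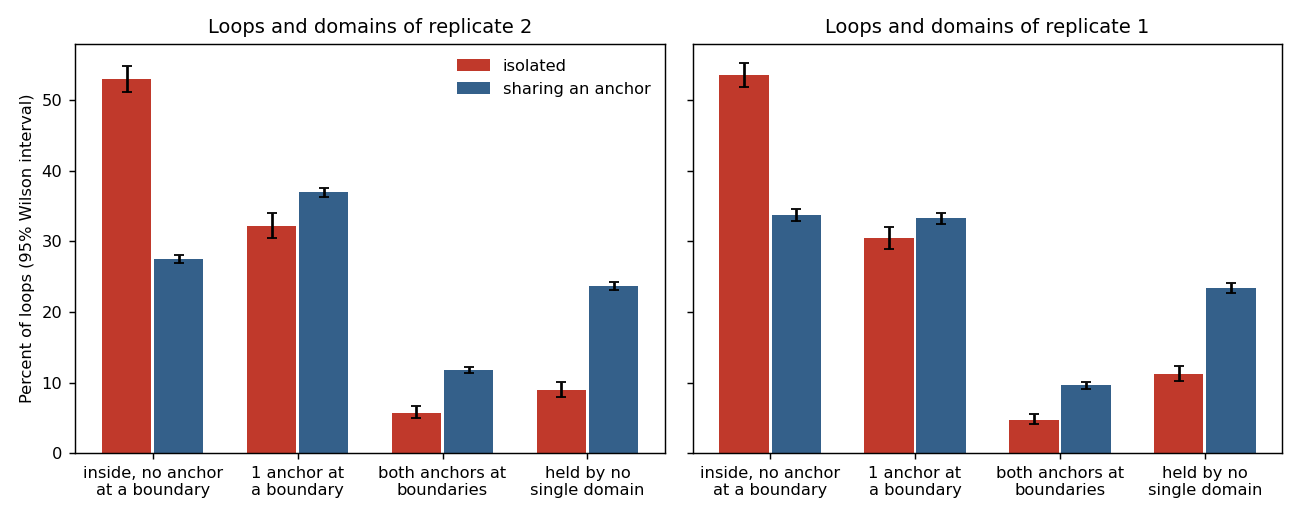
Percent of isolated loops and of loops sharing an anchor in each of 4 domain classes, for replicate 2 (left) and replicate 1 (right), with 95% Wilson intervals (bars). Embedded loops make up 53.0% and 53.5% of isolated loops against 27.5% and 33.7% of sharing loops.

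An isolated loop was often the only loop of its domain. Of the 2547 isolated loops held by a domain, 1506 (59.1%, 57.2 to 61.0) were the only loop assigned to it, against 31.4% of the held sharing loops. This count is tied to the rule, since loops that share an anchor tend to share a domain. The holding domains had a median size of 170 kb for isolated and 190 kb for sharing loops, and the loop spanned a median of 41.7% and 60.3% of its domain. Both anchors lay in the same level 0 domain, the outermost kind, for 81.5% of isolated loops (80.02 to 82.9) and 61.1% of sharing loops. At the lengths of the isolated loops the share of sharing loops was 72.3%, so that the difference fell from 20.4 to 9.24 points (7.82 to 10.7). They lay in adjoining level 0 domains for 14.2% and 27.7%. Recurrence of isolated loops was 16.0% for embedded ones (14.2 to 17.9), 27.4% with 1 anchor and 37.0% (29.98 to 44.7) with both anchors at boundaries. Sharing loops had the same order at higher shares, with 28.8%, 35.1% and 46.1%. Isolated loops held by no domain recurred in 33.6% of cases (28.1 to 39.6), against 21.0% (19.9 to 22.1) of sharing loops in that class.

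An isolated loop was seldom alone on the chromosome. Within 500 kb of its middle there was a median of 11 other loops, against 15 around sharing loops. The counts of nearby, surrounding and crossing loops are tied to the rule and describe the members alone. Loops that share an anchor tend to lie near each other. By the measure used, they were never counted as nested in or crossing each other. Of the isolated loops, 1714 (61.2%) lay wholly between the anchors of another loop, against 45.2% of sharing loops. At the lengths of the isolated loops the share of sharing loops was 53.1%. Only 283 isolated loops (10.1%) held another loop between their anchors, against 29.96%, and 517 (18.5%) crossed another loop, against 39.7%. At the lengths of the isolated loops these shares of sharing loops were 14.9% and 27.3%, which left differences of -4.74 points (-5.67 to -3.82) and -8.84 points (-10.3 to -7.38). The span of 766 isolated loops (27.4%) met no other loop at all. Those 766 recurred in 30.8% of cases (27.6 to 34.2), and the 1714 that lay inside another loop in 18.1% (16.4 to 20.04). Median lengths were 70 and 50 kb and median contacts 35 and 32, and recurrence was not matched for either.

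Isolated loops, like all loops, were denser toward the chromosome ends. In replicate 2, the number of all loops fell from 15.8 per Mb in the outermost 5% of the chromosomes to 8.11 per Mb in the middle. Isolated loops fell from 1.95 to 1.13 per Mb, and were already at 1.14 per Mb at 20 to 25% of the chromosome length. In replicate 1 all loops fell from 10.4 to 5.63 per Mb and isolated loops from 2.65 to 1.22 per Mb, so that the relative fall was less steep for isolated loops in replicate 2 and steeper in replicate 1. Their share of the loops was 12.3% (11.2 to 13.5) in the outermost 5%, between 8.91 and 9.58% from there to 25% of the chromosome length, and 14.6% (13.0 to 16.3) at 40 to 45%. The distance from the nearer end had a median of 21.9% of the chromosome length for isolated and 19.3% for sharing loops, larger for isolated loops on 8 of 10 chromosomes. Among loops over 40 kb the medians were 22.2% for isolated and 19.8% for sharing loops. When 40-kb loops were left out before the rule was applied, a different set of 2306 loops was isolated. The difference of the medians then fell from 0.0252 to 0.00536 of the chromosome length. In replicate 1 the medians over all lengths were 19.5% and 20.2%, an order opposite to that of replicate 2. They were larger for isolated loops on 3 of 10 chromosomes. In both replicates the share was higher in the outermost 5% than in the steps next to it. For replicate 1 it was 25.5% (23.7 to 27.3) there against 17.2 to 22.2% elsewhere. From 30% inward the replicates differed. Replicate 2 had its highest shares there, at 12.7 to 14.6%, whereas replicate 1 had 20.4 to 22.2%, below its share at the ends.

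Recurrence of isolated loops was lower in the inner part of the chromosomes, without a steady fall. In the outermost 5%, 30.7% of isolated loops recurred (26.5 to 35.4), close to the 29.6% of sharing loops there. It was 17.8% (13.5 to 23.2) at 20 to 25% of the chromosome length and 26.7% (21.6 to 32.5) at 30 to 35%. At 40 to 45%, 14.8% (10.97 to 19.6) of isolated and 31.0% (28.7 to 33.4) of sharing loops recurred, and at 45 to 50% the share of isolated loops was 18.4%. Between the inner and the outer part, divided midway between the end and the middle, recurrence differed by -4.48 points (-7.54 to -1.38) for isolated loops and 0.20 points (-1.04 to 1.45) for sharing loops. In replicate 1 these differences were -5.37 (-8.57 to -2.13) and -1.35 (-3.09 to 0.38). Contacts and the shape of the calls moved in the same direction. Isolated loops had a median of 35 contacts in the outer and 28 in the inner part, and 42.1% and 54.9% of them were 1-pixel calls. For sharing loops the medians were 34 and 30, and the shares 37.0% and 42.2%. The part of contacts and call shape in the change of recurrence was not tested.

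**Figure D5:**
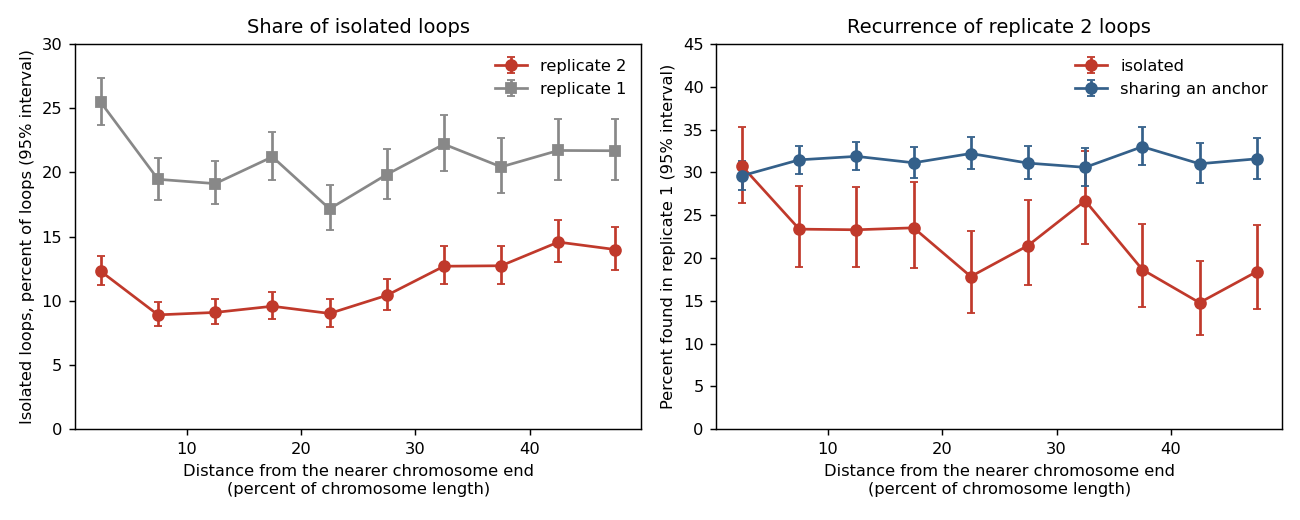
Left, isolated loops as a percent of all loops by distance from the nearer chromosome end, in steps of 5% of the chromosome length, for both replicates. Right, the percent of replicate 2 loops found in replicate 1 over the same steps, with 95% Wilson intervals (bars) in both panels, where isolated loops vary between 14.8% and 30.7%, highest at the ends with a second high of 26.7% at 30 to 35%, and sharing loops stay between 29.6 and 33.0%.

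The ratios and recurrence of the longest isolated loops lay far from those of the typical ones. The 41 loops over 1 Mb had 12 to 91 contacts with a median of 18, and a median of 0.256 expected contacts. Their median ratio was 107 (quartiles 20.9 and 213), against 7.98 (5.81 and 16.1) for the 110 sharing loops over 1 Mb. In 33 of the 41 less than 1 contact was expected, so that the ratio rests on a very small denominator. A single pixel made up 32 of these calls, and 40 of them lay in no single domain. Of the 41, 19 recurred in replicate 1 (46.3%, 32.1 to 61.3), against 21 of the 110 sharing loops (19.1%, 12.8 to 27.4). In replicate 1, 13 of 44 isolated loops over 1 Mb recurred in replicate 2 (29.5%, 18.2 to 44.2), against 27.6% of the sharing ones (19.7 to 37.1), so that the difference of replicate 2 was not found there.

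Single isolated loops show how the values vary. Coordinates are those of B73 AGPv4, counted from 1. The loop with the most contacts among those with identical anchors in both replicates was chosen on each chromosome. These 10 loops were 50 to 430 kb long, 4 were embedded in a domain, 3 had 1 anchor and 2 both anchors at a boundary, and 1 was held by no domain. All 10 had fewer contacts in replicate 1, and 7 had a higher ratio there. The choice was made on contacts in replicate 2, which favors lower counts in replicate 1. The 228 isolated loops with identical anchors also had fewer contacts there, with a median of 23 against 39.

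On chromosome 8, the anchors at 173050001 to 173060000 and 173200001 to 173210000 lay 150 kb apart inside a level 1 domain. They had 224 contacts against 8.05 expected in replicate 2, a ratio of 27.8, and 212 contacts with a ratio of 40.3 in replicate 1. On chromosome 5, the anchors at 66460001 to 66470000 and 66890001 to 66900000 lay 430 kb apart and in no single domain. There 163 contacts stood against 1.30 expected, a ratio of 126, and 127 contacts with a ratio of 150 were found in replicate 1. The loop on chromosome 10 with anchors at 131420001 to 131430000 and 131470001 to 131480000 was of the more common kind. It was 50 kb long and embedded, with 104 contacts and a ratio of 2.98 in replicate 2, and 54 contacts and a ratio of 4.07 in replicate 1. Their contacts lay far above the upper quartile of 45, which follows from the choice by most contacts.

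The most remote loops were of another kind. The loop farthest from any other anchor lay on chromosome 1 at 135090001 to 135100000 and 135130001 to 135140000, with the next anchor 1480 kb away. It was 40 kb long and embedded, with 27 contacts in 1 pixel and a ratio of 5.63, and no loop of replicate 1 lay on either anchor. The next on chromosome 1, at 132260001 to 132270000 and 132340001 to 132350000, was 930 kb from another anchor and was not found in replicate 1 either. The third, on chromosome 4, joined 112540001 to 112550000 and 115200001 to 115210000 over 2660 kb with 12 contacts and a ratio of 13.7. It recurred with 16 contacts and a ratio of 4.55 in a call with 25-kb anchors, so the ratios are not like for like. All 3 lay in the middle of their chromosome, at 43.1 to 46.1% of its length from the nearer end.

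The longest isolated loops joined places far apart with few contacts. On chromosome 1, the anchors at 263740001 to 263750000 and 280870001 to 280880000 lay 17130 kb apart, with 17 contacts in 1 pixel. Another pair on chromosome 1, at 267040001 to 267050000 and 280970001 to 280980000, lay 13930 kb apart with 12 contacts. Neither had a loop of replicate 1 on its anchors, and the second anchors of both lay near each other. On chromosome 9, 61970001 to 61980000 and 77040001 to 77050000 were joined over 15070 kb by 36 contacts in 5 pixels, and 1 of these anchors was found in replicate 1. The largest ratios among loops of at least 20 contacts were 2042 on chromosome 2 (69 contacts over 13790 kb), 1923 on chromosome 8 (30 contacts over 5940 kb) and 758 on chromosome 10 (23 contacts over 7950 kb). The loop on chromosome 10 had anchors at 24380001 to 24390000 and 32330001 to 32340000. It recurred in replicate 1 as a call with 25-kb anchors, 18 contacts and a ratio of 38.5. The other 2 did not, although 1 anchor of the loop on chromosome 2 was found there.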

How the data were processed

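Hi-C of replicates 1 and 2 of B73 v04 leaves was analysed from the loop and domain lists deposited by the authors. Reads were mapped by the authors against B73 AGPv4 (Juicer), and they called loops with HICCUPS (juicer_tools 1.9.9 for replicate 1, 1.14.08 for replicate 2) and domains with HiTAD, in each replicate alone. The deposited lists give the count of contacts at each loop, not normalized, the expected count from 4 local backgrounds, and a q-value (false discovery rate) against each background, computed by the authors. The lists hold calls only, so a loop that is not listed may have missed the caller's threshold. The total contacts per library are not in these lists.

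Members and lists were chosen with earlier results of these data known. Anchors, recurrence and domain classes were compared by coordinates with Python 3.11.15, numpy 2.4.6 and pandas 2.3.3, and drawn with matplotlib 3.10.9. Length was measured from anchor start to anchor start. Chromosome lengths are the largest coordinates in the files. Sharing loops were weighted to the isolated loops over bins of length, contacts, ratio or anchor size (or lengths in steps of 10 kb). Only bins with at least 10 sharing loops were used. Shares have 95% Wilson and differences 95% Newcombe intervals, except that differences between weighted shares have normal intervals. No p-value was computed, since the design has 1 condition. The anchor rule, recurrence, domain classes and the Wilson and Newcombe intervals were tested on hand-made and simulated lists. In these, 11 of 11 checks gave the known answer. Distances to other anchors, surrounding loops, chromosome position and the weighting were not part of the checks. The named loops were those with the most contacts per chromosome among members with identical anchors in both replicates, the 3 farthest from other anchors, the 3 longest, and the 3 with the largest ratio among members of at least 20 contacts. Genes and sequence at the anchors were not analysed here.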

Additional observations from a re-analysis of the deposited data

Results flagged for a closer look

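Loops on Chr0, which collects sequence with no place on a chromosome, were outside the comparison. Of its 289 loops in replicate 2, 38 were isolated (13.1%, 95% Wilson interval 9.73 to 17.5), where a count of 0 would allow up to 1.04%. They had a median length of 80 kb and a median ratio of 4.73, 7 were over 1 Mb, and 15 recurred in replicate 1. The share of 10.9% on chromosomes 1 to 10 lay inside that interval. Positions on Chr0 are an arbitrary order of unplaced pieces, so a length there has no clear meaning.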

How the results depend on the processing

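Each result was recomputed under the alternatives, some of which take replicate 1 in place of replicate 2, which gave 55 values. Of these, 12 are shares or distances that have no direction. Of the other 43, the direction held in 41, and 21 moved by less than the spread between the replicates. That spread rests on 2 replicates classed by unlike rules. The alternatives are not independent, and the gap between anchors differs from the length only by the anchor width, so its difference could not change. Differences are isolated minus sharing loops. Where loops were left out by contacts, length or false discovery rate, the rule was applied anew to the loops that remained, so the members changed. When anchors in adjoining bins also counted as shared, the share of isolated loops fell to 4.81%, the difference in embedded loops rose to 39.0 points, that in relative distance from the end to 0.0700, and the median distance of the farther anchor to 80 kb. With at least 20 contacts, 3181 loops were isolated. The difference in median length was then -50 kb, that in embedded loops 20.1 points and the median distance 60 kb. Without 40-kb loops these were -50 kb, 18.7 points and 60 kb, and the difference in recurrence was -5.31 points. Recurrence by identical anchors, which is the same as by 10-kb anchors of replicate 1, gave -4.71 points, anchors within 10 kb gave -4.04, and weighting to length and contacts -1.27. Weighting to length gave 18.9 points for embedded loops. In replicate 1 by the overlap rule the share was 20.8%, recurrence -12.2 points, length -50 kb, embedded loops 19.8 points and the farther anchor 60 kb. There the ratio of observed to expected contacts reversed (0.12), as did the relative distance (-0.00633). Among its loops with 10-kb anchors, a setting added after seeing the data like both weightings, these were -15.8 points, -50 kb, 19.4 points, -0.49 for the ratio and 0.00202 for the distance. By exact coordinates the share in replicate 1 was 55.5%. The distance from the end in Mb differed by 4.995 Mb. With the lower-left background the difference of the median ratios shrank from -0.79 to -0.30, whereas the horizontal and vertical ones gave -0.63 and -0.61. Stricter false discovery rates (at most 0.01) changed no direction.

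No paired analysis was possible because the series has 1 group. With 1 condition and 2 replicates called with different anchor sizes and program versions, the replicates show whether a pattern was present in both and not how often it would recur in further plants.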

Other observations

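Distance to other anchors and recurrence did not move together in 1 direction. Isolated loops whose nearer anchor lay in the bin next to another anchor recurred in 23.8% of cases (21.8 to 26.0), those at 20 to 50 kb in 22.8% (20.1 to 25.8), those at 60 to 100 kb in 13.2% (9.02 to 18.9) and those at 110 to 500 kb in 19.4% (14.6 to 25.4). The 206 loops of the last group lay closer to the middle of their chromosomes, at a median of 0.343 of the chromosome length from the nearer end, than the 1567 with an anchor in the next bin, at 0.188.

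In replicate 2, held isolated loops were assigned to level 0 domains somewhat less often, on 7 of 10 chromosomes with 3 the other way. The smallest domain that can hold a loop depends on its length, and these shares were not matched for length. Of the held isolated loops, 39.9% were assigned to a level 0 domain, 38.3% to level 1 and 17.4% to level 2, against 44.8%, 37.3% and 14.4% of the held sharing loops. In replicate 1 the level 0 shares were 45.4% and 47.0%, which differed by -1.65 points (-3.65 to 0.35), an interval that includes no difference.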
